A study of Homo sapiens with 6 samples.

Results

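The genes described here are those of the NRF2 oxidative stress pathway together with the glutathione and thioredoxin systems, 41 gene symbols chosen by name and by known function. All 41 were found among the 36458 symbols of the count table. The study treated the human small cell lung cancer line DMS114 with 2.5 mM β-alanine for 48 h or with vehicle, and sequenced polyadenylated RNA from 3 libraries per group. β-alanine, a non-proteinogenic amino acid, is a building block of carnosine and of coenzyme A. Both groups are the same unmodified line, and the labels do not say whether libraries of a group were separate cultures. The p-values therefore cover the spread among these 6 libraries alone, which may be technical. In bulk libraries such as these, a change in the share of cells that express a gene and a change in RNA per cell cannot be told apart.

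NRF2, the protein of the NFE2L2 gene, is a transcription factor that KEAP1 holds in the cytoplasm and hands to a ubiquitin ligase. When electrophiles or oxidants modify KEAP1, NRF2 escapes degradation, pairs with small MAF proteins and binds antioxidant response elements, where BACH1 competes with it. Its classical targets make glutathione, reduce quinones, break down heme, store iron and keep thioredoxin and peroxiredoxins reduced. NRF2 is regulated mainly at the protein level, which RNA counts do not measure.

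The core of the antioxidant response element, TGACNNNGC, is shown here in promoters of some members, since it belongs to the element that NRF2 binds. Sequences are from RefSeq on GRCh38.p14, 5′ to 3′ on the strand of the gene, with the match in capitals. A match on the opposite strand reads GCNNNGTCA. The first 3 are from members that were higher in β-alanine cells, and the last 2 from members that were not called.
GCLM, chr1:93909431-93909489, minus strand: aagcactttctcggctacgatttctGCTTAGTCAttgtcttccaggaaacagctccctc
ME1, chr6:83431155-83431213, minus strand: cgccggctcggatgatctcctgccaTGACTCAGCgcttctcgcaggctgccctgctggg
GSTO1, chr10:104254642-104254699, plus strand: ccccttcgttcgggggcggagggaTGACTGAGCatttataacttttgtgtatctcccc
GSTP1, chr11:67583721-67583779, plus strand: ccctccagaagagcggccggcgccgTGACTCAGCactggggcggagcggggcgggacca
TXNRD1, chr12:104215655-104215713, plus strand: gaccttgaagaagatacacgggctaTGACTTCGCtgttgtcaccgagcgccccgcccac

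Windows from 250 bases before to 50 after a start were at hand for 33 of the 41 members. FTH1, GSR, GSS, HMOX1, PRDX1, PRDX6, SOD1 and TXN2 had none. On either strand the core was found in 8 of these 33 members (24.2%), against 16.1% of 27305 genes with a window. A gene can have several windows. Counted by window, it was in 17.3% of 52 member windows and 13.3% of all 35116. It was in 3 of 10 members that rose (GCLM, GSTO1 and ME1), in 0 of 3 that fell and in 4 of 18 that were not called (GSTA4, GSTP1, KEAP1 and TXNRD1). A match is a run of letters and not a shown binding site. No match says only that these letters are not in the window.

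The libraries held 14433801, 27324339 and 32909568 counts for β-alanine and 18814876, 22072654 and 19613283 counts for controls. β-alanine library 1 was the shallowest and stood apart on the first principal component, at -6.95 against -20.2 for both other β-alanine libraries and 13.9 to 16.8 for controls. The subtype factor YAP1 lay at 122 to 134 CPM (counts scaled to library totals adjusted by TMM, a correction for composition) in β-alanine libraries and 120 to 129 CPM in controls. NEUROD1, the other subtype factor tested, averaged 1.91 CPM with β-alanine and 2.28 CPM in controls and was not called. Of 8 neuroendocrine markers, 6 were tested. CHGA, CHGB, SYP and UCHL1 rose, NCAM1 fell, and ENO2 was not called (log2 difference -0.05). This was 83.3% called, against 27.9% of all genes tested. At an average log2 CPM of at least 5, 3 of 4 were called, against 40.4% of all genes. INSM1, which was near 0, and SCG2 were not tested. The 8 markers summed to 304 to 336 CPM with β-alanine and 266 to 275 CPM in controls. Of 5 fibroblast markers, 4 were tested and 2 fell. The summed level of all 5 was 215 to 232 CPM in β-alanine libraries and 255 to 268 CPM in controls. The 4 epithelial markers summed to 11.8 to 14.7 CPM with β-alanine and 8.92 to 9.89 CPM in controls, and of the 2 tested KRT18 rose by 0.58 on the log2 scale. The part of these markers in the changes below was not tested. Leukocyte markers summed to 0.150 to 0.418 CPM in β-alanine libraries and 0.204 to 0.324 CPM in controls.

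Of the 41 members, 39 had enough counts to be tested, 14 rose and 5 fell in β-alanine cells, and 20 were not called. Calls were made with the quasi-likelihood test of edgeR where the Benjamini-Hochberg p over 17331 genes was under 0.05. In the same test 27.9% of all genes were called, 14.1% as higher and 13.8% as lower. Detection grows with the level, and 31 members had an average log2 CPM of at least 5. Of these, 15 were called, against 40.4% of the 6479 genes at that level. The values of the groups did not overlap for 22 members, 15 higher and 7 lower with β-alanine, against 39.1% of all genes tested. The changes were small, with a median size of 0.24 on the log2 scale for the 19 called members and 0.28 for all 4830 called genes. HMOX1 and ME1 were the only called members that changed by at least 0.5. These were 2 of 39 members tested, against 963 of all 17331 genes tested.

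**Figure D1:**
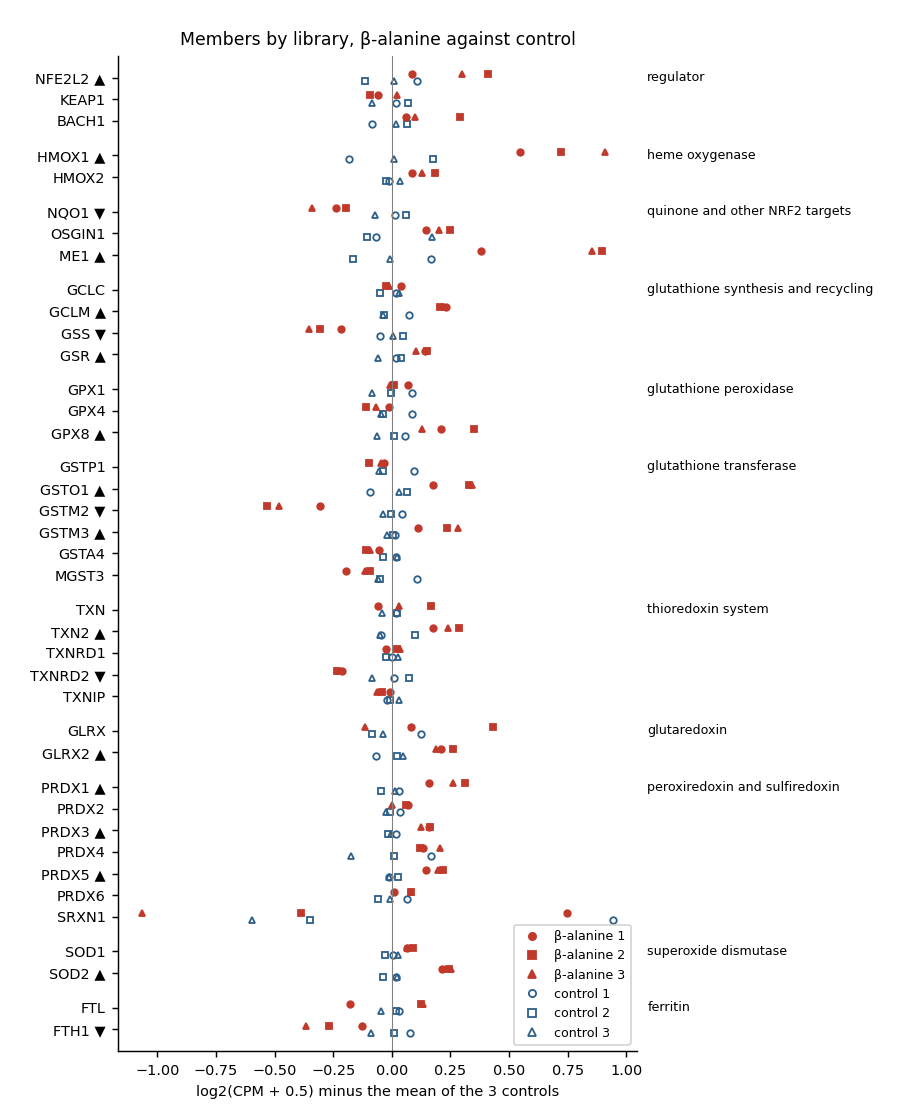
Each row is a tested member, ordered by role, and the horizontal axis is log2(CPM + 0.5) in each library minus the mean of the 3 controls, with β-alanine libraries (filled) drawn above controls (open) and triangles beside the names marking members that rose or fell. HMOX1 and ME1 stand out as higher with β-alanine, GSTM2 as lower, and SRXN1 is high in library 1 of both groups.

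HMOX1, the heme oxygenase that NRF2 and BACH1 regulate and that splits heme into biliverdin, iron and carbon monoxide, had the smallest adjusted p among the members that rose. It lies at chr22:35381096-35394207 (RefSeq, GRCh38, as for the other gene positions). It reached 12.0, 13.6 and 15.6 CPM in β-alanine libraries, against 7.03, 9.14 and 8.11 CPM in controls. All β-alanine libraries were above all controls, and the means were 13.7 ± 1.79 and 8.09 ± 1.06 CPM (SD, n = 3 each). The log2 fold change was 0.78 ± 0.11 (SE), and the adjusted p was 2.76e-05 (edgeR, quasi-likelihood, Benjamini-Hochberg, as for every adjusted p below). HMOX2, the constitutive heme oxygenase, had 49.1, 52.7 and 50.6 CPM with β-alanine and 45.9, 45.5 and 47.4 CPM in controls. Its groups did not overlap, but its log2 fold change of 0.14 missed the threshold (adjusted p = 0.0547). Without β-alanine library 1 it passed (adjusted p = 0.0153), in a fit that called 36.2% of all genes, against 27.9% over all libraries.

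Among the regulators, NFE2L2 was higher and KEAP1 was not called. NFE2L2 had 38.6, 48.5 and 44.9 CPM in β-alanine libraries, against 39.2, 33.5 and 36.5 CPM in controls. β-alanine library 1 lay within the controls and the other two above them. The log2 fold change was 0.29 ± 0.08 with an adjusted p of 0.00762, and the gene was not called without β-alanine library 2 (adjusted p = 0.0637) or without control library 2 (adjusted p = 0.0703). The exons of NFE2L2 share 20.9% of their bases with other genes, among them AGPS on the opposite strand, which fell by 0.20 on the log2 scale. No source used here says whether counting used strand, so reads from such a pair cannot be told apart.

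KEAP1, the inhibitor of NRF2, had 55.8, 54.6 and 59.1 CPM with β-alanine and 59.0, 61.1 and 54.9 CPM in controls, with a log2 fold change of -0.04 (95% interval -0.16 to 0.07, adjusted p = 0.598). BACH1, the repressor that competes for the same elements, had 44.5, 52.3 and 45.7 CPM with β-alanine and 40.3, 44.7 and 43.2 CPM in controls. Its log2 fold change of 0.16 missed the threshold (adjusted p = 0.07). BACH1 passed without β-alanine library 1 (adjusted p = 0.00905), where 36.2% of all genes were called, against 27.9% over all libraries. The ratio of NFE2L2 to KEAP1 counts, which needs no scaling between libraries, was 0.692, 0.887 and 0.759 with β-alanine and 0.665, 0.548 and 0.665 in controls. These ratios did not overlap (exact permutation test, two-sided p = 0.1, the smallest that 3 against 3 allows).

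NQO1, the quinone reductase often read as a marker of NRF2 activity, went the other way from HMOX1. It had 43.0, 44.4 and 40.1 CPM in β-alanine libraries, against 51.3, 53.1 and 48.3 CPM in controls, and all β-alanine libraries lay below all controls. The log2 fold change was -0.27 ± 0.06 (adjusted p = 0.00146). The number of NQO1 counts per HMOX1 count was 3.59, 3.26 and 2.58 with β-alanine and 7.30, 5.81 and 5.96 in controls. ME1, the cytosolic malic enzyme that makes NADPH, was low at 2.02, 3.10 and 3.00 CPM in β-alanine libraries and 1.68, 1.23 and 1.43 CPM in controls. It rose by 0.97 ± 0.21 on the log2 scale (adjusted p = 0.00146), the largest fold change of the members tested. OSGIN1, an oxidative stress-induced growth inhibitor, averaged 1.46 ± 0.07 CPM with β-alanine and 1.22 ± 0.18 CPM in controls and was not called (adjusted p = 0.405).

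**Figure D2:**
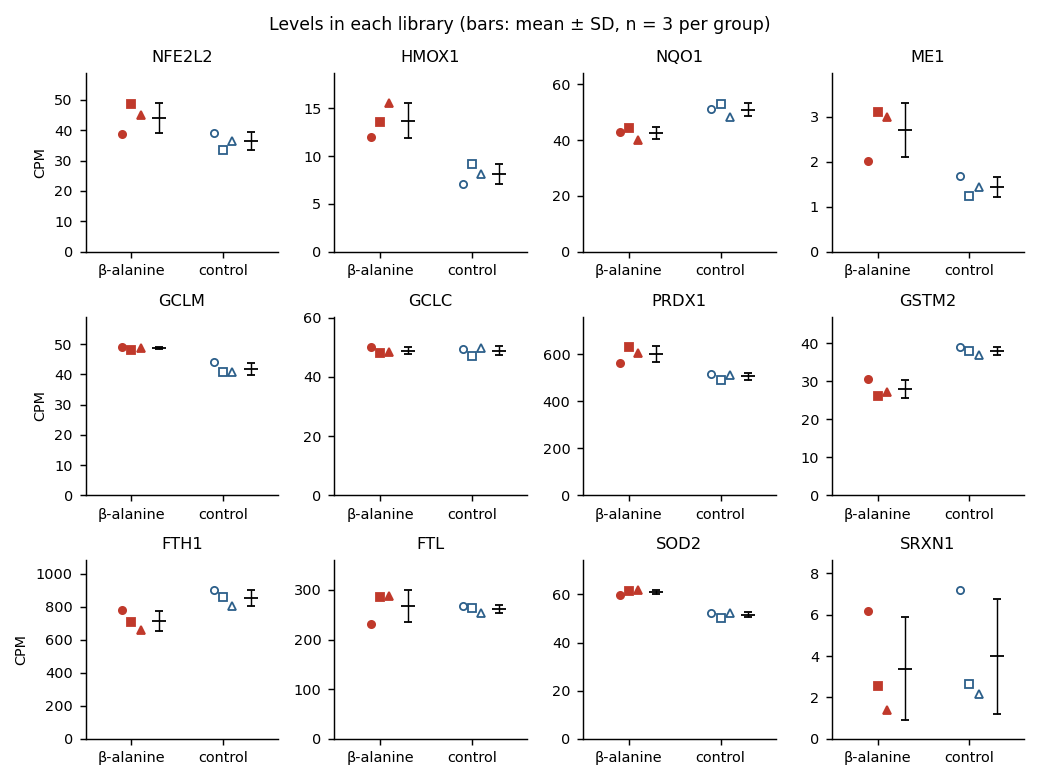
CPM of 12 members in each library, β-alanine (filled) left of control (open), with the mean and SD of 3 libraries; each axis starts at 0. HMOX1 and ME1 are higher with β-alanine, NQO1 and FTH1 lower, and GCLC is at the same level in both groups within the spread.

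Glutathione is made by glutamate cysteine ligase, a dimer of the catalytic subunit GCLC and the modifier subunit GCLM, and then by glutathione synthetase, GSS. GCLM rose, and GCLC was not called. GCLM had 49.2, 48.2 and 48.8 CPM in β-alanine libraries, against 44.0, 40.8 and 40.6 CPM in controls, a difference of 0.22 ± 0.05 on the log2 scale (adjusted p = 0.0039). GCLC had 50.1, 47.9 and 48.4 CPM with β-alanine and 49.5, 47.1 and 49.8 CPM in controls. Its log2 difference of -0.0016 had a 95% interval of -0.11 to 0.11 (adjusted p = 0.987). GCLM counts per GCLC count were 0.981, 1.01 and 1.01 with β-alanine and 0.889, 0.865 and 0.816 in controls, without overlap (exact permutation p = 0.1).

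GSS, the enzyme of the last step, fell. It had 31.7, 29.8 and 28.8 CPM in β-alanine libraries and 35.6, 38.2 and 37.0 CPM in controls (log2 fold change -0.31 ± 0.06, adjusted p = 0.000805). GSR, which reduces oxidized glutathione with NADPH, had 78.4, 78.9 and 76.2 CPM with β-alanine and 72.0, 73.0 and 68.2 CPM in controls. Its log2 fold change of 0.13 ± 0.05 was close to the threshold (adjusted p = 0.0418). It was not called when any library other than β-alanine library 1 was left out, at adjusted p from 0.066 to 0.213. It was also lost in DESeq2 (adjusted p = 0.0949) and with a minimum of 10 counts in every library (adjusted p = 0.0515).

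Of 4 glutathione peroxidase genes, GPX8 rose. This enzyme of the endoplasmic reticulum had 32.2, 35.5 and 30.4 CPM with β-alanine and 28.9, 27.9 and 26.5 CPM in controls (log2 fold change 0.24 ± 0.07, adjusted p = 0.0137). It was not called without β-alanine library 2 (adjusted p = 0.138), control library 2 (adjusted p = 0.0555) or control library 3 (adjusted p = 0.0788). GPX1 and GPX4, selenoproteins that reduce hydrogen peroxide and lipid peroxides, had log2 differences of 0.02 (95% interval -0.08 to 0.12) and -0.07 (95% interval -0.16 to 0.03). The processed pseudogene of GPX1, GPX1P1, was counted too, at 22.0 ± 1.40 CPM with β-alanine and 22.5 ± 0.71 CPM in controls. GPX3, the plasma form, was not tested. It had 18 counts in all β-alanine libraries and 19 in all controls, or 0.240 CPM (95% Poisson interval 0.142 to 0.379) and 0.316 CPM (0.190 to 0.494), which cover counting error only.

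The glutathione transferases moved in both directions. GSTM2, a cytosolic mu-class enzyme at chr1:109668057-109683997, fell most, to 30.6, 26.1 and 27.1 CPM in β-alanine libraries, against 39.1, 37.8 and 37.0 CPM in controls. Its log2 fold change was -0.46 ± 0.07 (adjusted p = 2.45e-05), the smallest adjusted p of the members tested. Mu-class genes of this cluster are near-identical, so reads can be split between them or left uncounted, and the value for GSTM2 alone is uncertain. GSTM1, GSTM2 and GSTM4 summed to 106, 103 and 102 CPM with β-alanine and 119, 122 and 126 CPM in controls (exact permutation p = 0.1). GSTM1 fell by 0.37 (adjusted p = 0.0003) and GSTM4 had a log2 difference of 0.02 (adjusted p = 0.823).

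GSTM3, the more distant mu-class member, rose instead. It had 121, 132 and 136 CPM in β-alanine libraries and 113, 112 and 111 CPM in controls (log2 fold change 0.22 ± 0.05, adjusted p = 0.00106). GSTO1, the omega-class enzyme that reduces mixed disulfides, had 37.0, 41.3 and 41.7 CPM with β-alanine and 30.7, 34.3 and 33.5 CPM in controls (log2 fold change 0.29 ± 0.06, adjusted p = 0.00141). GSTP1, the pi-class enzyme and the highest transferase here, was at 720, 689 and 714 CPM with β-alanine and 786, 717 and 708 CPM in controls. Its groups overlapped and it was not called (log2 difference -0.06, adjusted p = 0.294). GSTA4 and MGST3 were lower in all β-alanine libraries than in all controls, by -0.09 and -0.13 on the log2 scale, but missed the threshold (adjusted p = 0.488 and 0.0868). MGST1, a microsomal transferase, had 1 count in all β-alanine libraries and 1 in all controls and was not tested.

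The thioredoxin system passes electrons from NADPH through a selenium-containing reductase to thioredoxin. TXN and TXNRD1 form it in the cytosol, TXN2 and TXNRD2 in mitochondria. The cytosolic pair was not called. TXNRD1 had 100.2, 104 and 104 CPM in β-alanine libraries, against 102, 99.9 and 104 CPM in controls, with a log2 difference of 0.01 (95% interval -0.07 to 0.10, adjusted p = 0.84). TXN had a log2 difference of 0.05 (adjusted p = 0.479), and TXNIP, which binds and inhibits thioredoxin, one of -0.04 (adjusted p = 0.494).

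The mitochondrial pair was called, in opposite directions. TXN2 had 53.7, 58.1 and 56.2 CPM with β-alanine and 46.0, 50.9 and 45.9 CPM in controls, a rise of 0.24 ± 0.06 (adjusted p = 0.00271). TXNRD2 had 19.1, 18.9 and 18.9 CPM with β-alanine and 22.4, 23.4 and 21.0 CPM in controls, a log2 fold change of -0.23 ± 0.07 (adjusted p = 0.0207). The TXNRD2 call was lost in DESeq2 (adjusted p = 0.0504). It was lost without β-alanine library 2 or 3 and without control library 1 or 2, at adjusted p of 0.0608 to 0.121.

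Superoxide dismutases and glutaredoxins also come in mitochondrial and cytosolic forms. SOD2, the mitochondrial manganese superoxide dismutase, had 59.9, 61.2 and 61.6 CPM in β-alanine libraries, against 52.2, 50.3 and 52.4 CPM in controls (log2 fold change 0.24 ± 0.05, adjusted p = 0.000907). SOD1, the cytosolic copper-zinc form, was higher in all β-alanine libraries than in all controls but missed the threshold (log2 difference 0.07, adjusted p = 0.161). GLRX2, the mainly mitochondrial glutaredoxin, had 88.5, 91.8 and 87.2 CPM with β-alanine and 72.9, 77.6 and 79.0 CPM in controls (log2 fold change 0.22 ± 0.05, adjusted p = 0.00121). Its exons share 7.75% of their bases with RO60 on the opposite strand, which also rose (log2 fold change 0.27). GLRX, the cytosolic form, averaged 3.09 ± 0.70 CPM with β-alanine and 2.74 ± 0.25 CPM in controls and was not called (adjusted p = 0.526).

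Peroxiredoxins reduce peroxides with a reactive cysteine and are recharged by thioredoxin. Of 6, 3 rose and 0 fell. All 6 had an average log2 CPM of at least 5, where 40.4% of all genes were called, so this count is near the background. PRDX1, the most abundant and cytosolic, had 565, 630 and 608 CPM in β-alanine libraries, against 518, 491 and 511 CPM in controls (log2 fold change 0.25 ± 0.04, adjusted p = 0.000108). All β-alanine libraries were above all controls. Of its exon bases, 24.9% are shared with MMACHC on the opposite strand, which fell by 0.60 on the log2 scale (adjusted p = 3.28e-06).

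PRDX3, the mitochondrial member, had 351, 352 and 342 CPM with β-alanine and 318, 310 and 314 CPM in controls (log2 fold change 0.15 ± 0.04, adjusted p = 0.00361). PRDX5, found in mitochondria, peroxisomes and cytosol, had 236, 249 and 245 CPM with β-alanine and 212, 218 and 212 CPM in controls (log2 fold change 0.19 ± 0.04, adjusted p = 0.000768). PRDX2, PRDX4 and PRDX6 had log2 differences of 0.04, 0.15 and 0.06 and were not called. PRDX4, the form of the endoplasmic reticulum, had an adjusted p of 0.106, and it was called without control library 1 (adjusted p = 0.00859). All 6 genes summed to 1552 ± 43.8 CPM with β-alanine and 1377 ± 29.2 CPM in controls (SD, n = 3 each, exact permutation p = 0.1).

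Then 5 mitochondrial forms that have separate cytosolic genes were set beside those counterparts, a grouping by known location. Like the other lists, it was chosen with earlier results of these data known. The shares called in it are therefore no test of location. Other members, GPX1, GPX4 and GSR among them, were in neither set. PRDX5, found in mitochondria and elsewhere, was in neither set. Of TXN2, TXNRD2, PRDX3, SOD2 and GLRX2, 5 of 5 were called, 4 as higher and 1 as lower, against 27.9% of all genes. TXNRD2 was below an average log2 CPM of 5. At that level or above, 4 of 4 were called, against 40.4% of all genes. The fall of TXNRD2 was among the calls lost in DESeq2 and without single libraries. The 5 mitochondrial forms summed to 572, 582 and 566 CPM in β-alanine libraries and 512, 512 and 512 CPM in controls. Of TXN, TXNRD1, PRDX1, PRDX2, SOD1 and GLRX, PRDX1 alone was called, and the sum was 1029, 1115 and 1077 CPM with β-alanine and 979, 943 and 969 CPM in controls. Neither sum overlapped between the groups (exact permutation p = 0.1 each). The mitochondrial sum was 1.12-fold and the cytosolic sum 1.11-fold that of controls. Most of the cytosolic difference was PRDX1. Without it the other 5 genes summed to 464, 485 and 469 CPM with β-alanine and 460, 451 and 458 CPM in controls, or 1.04-fold.

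The 5 ratios of a mitochondrial to a cytosolic form within a library did not all go the same way. The SOD2 to SOD1 ratio was 0.304, 0.305 and 0.313 with β-alanine and 0.276, 0.272 and 0.273 in controls. The TXN2 to TXN ratio was also higher without overlap, at 0.678, 0.626 and 0.665 with β-alanine and 0.549, 0.605 and 0.571 in controls. The TXNRD2 to TXNRD1 ratio was lower without overlap, at 0.191, 0.182 and 0.182 with β-alanine and 0.220, 0.234 and 0.202 in controls. These 3 ratios each had the smallest possible exact permutation p of 0.1. The GLRX2 to GLRX ratio overlapped, at 30.3, 23.8 and 35.1 with β-alanine and 24.1, 30.5 and 29.8 in controls (exact permutation p = 0.8). The PRDX3 to PRDX1 ratio overlapped, at 0.621, 0.559 and 0.562 with β-alanine and 0.614, 0.631 and 0.614 in controls (exact permutation p = 0.3).

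**Figure D3:**
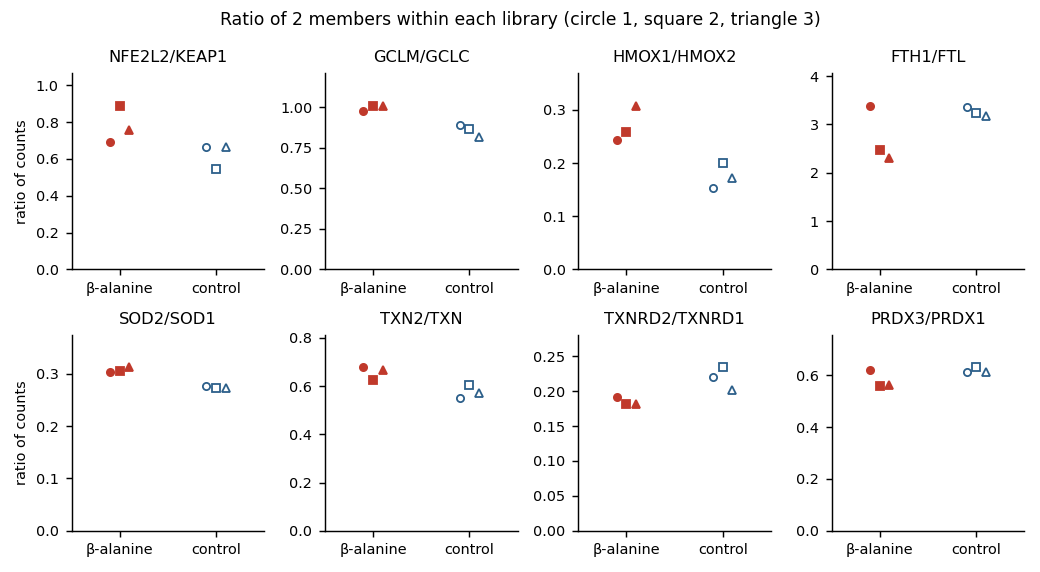
Ratio of the counts of 2 members in each library, β-alanine (filled) left of control (open), each axis from 0. The GCLM to GCLC and SOD2 to SOD1 ratios do not overlap between the groups, and the FTH1 to FTL ratio of β-alanine library 1 lies with the controls.

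SRXN1, the sulfiredoxin that repairs overoxidized peroxiredoxins and a frequent NRF2 target, could not be read as changed or unchanged. It had 6.20, 2.55 and 1.41 CPM in β-alanine libraries, against 7.19, 2.64 and 2.14 CPM in controls. The log2 difference was -0.42 with a 95% interval of -2.59 to 1.75 (adjusted p = 0.76). Library 1 was high in both groups. The lower of these values was 2.35 times the highest of the other 4 libraries, the largest such ratio of the 17331 genes tested. By the same measure 9 genes exceeded 1.5-fold for libraries numbered 1, 1 gene for those numbered 2 and 1 for those numbered 3. Of the exon bases of SRXN1, 85% are shared with AL121758.1, which had 0 counts in all 6 libraries.

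Ferritin stores iron in a shell of heavy chains, FTH1, and light chains, FTL. FTH1, at chr11:61964285-61967634, had 781, 708 and 661 CPM in β-alanine libraries, against 900, 859 and 803 CPM in controls. All β-alanine libraries were below all controls, with a log2 fold change of -0.25 ± 0.06 (adjusted p = 0.00606). FTL had 231, 285 and 287 CPM with β-alanine and 267, 265 and 253 CPM in controls. It was not called over all libraries (log2 difference 0.04, adjusted p = 0.761). Without β-alanine library 1, its only one below the controls, FTL was higher by 0.13 (adjusted p = 0.0036). That fit called 36.2% of all genes, against 27.9% over all libraries. FTH1 counts per FTL count were 3.38, 2.48 and 2.30 with β-alanine and 3.37, 3.25 and 3.17 in controls (exact permutation p = 0.4). Library 1 lay with the controls and the other 2 below them. Both chains together came to 985 ± 32.8 CPM with β-alanine and 1115 ± 55.9 CPM in controls (exact permutation p = 0.1). The exons of FTH1 share 62.4% of their bases with BEST1 on the opposite strand, whose own counts were 67 to 162 per library. The 15 FTH1 pseudogenes in the table summed to 3.21 ± 0.19 CPM with β-alanine and 3.41 ± 0.35 CPM in controls.

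Levels between genes were compared per kilobase of exon. Reads on bases shared with another gene may have been left uncounted. Levels of members such as FTH1, with 62.4% of exon bases shared, may therefore be too low. With β-alanine the highest members were PRDX1 at 395, GSTP1 at 370, FTH1 at 353, FTL at 305 and PRDX5 at 273 CPM per kb. In controls FTH1 came first at 421, followed by GSTP1 at 386, PRDX1 at 333, FTL at 298 and PRDX5 at 239 CPM per kb. HMOX1 stood at 5.70 CPM per kb with β-alanine and 3.37 CPM per kb in controls, below KEAP1 at 15.0 and 15.5 CPM per kb. ME1 reached 0.802 CPM per kb with β-alanine and 0.428 CPM per kb in controls. The members with the larger fold changes were therefore among the less abundant, while FTH1 and PRDX1 changed most in CPM.

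**Figure D4:**
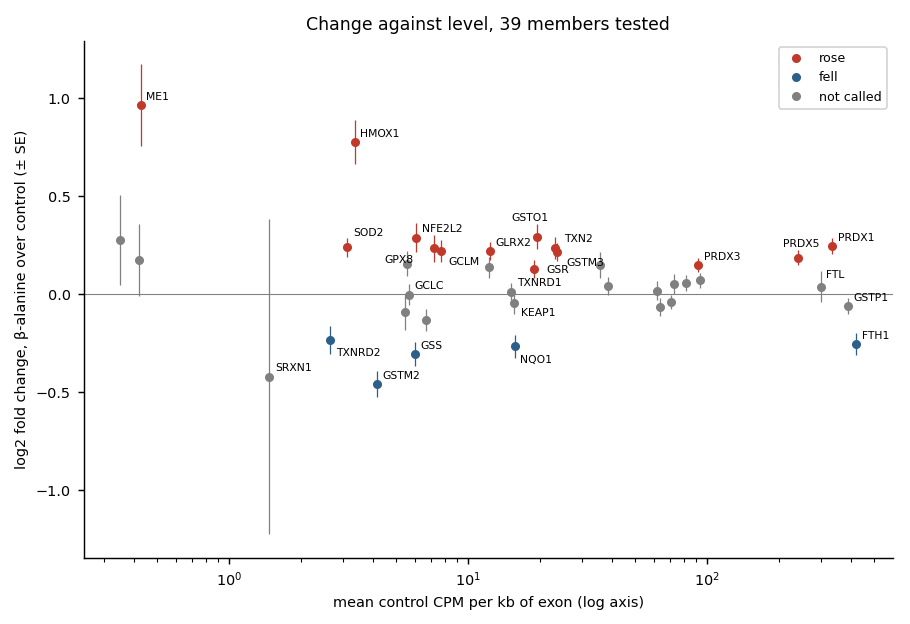
Log2 fold change of β-alanine over control (± SE) against the mean control level in CPM per kb (log axis) for the 39 members tested. ME1 and HMOX1 have the largest rises at low levels, and of the 5 most abundant members PRDX1, at 0.25, and FTH1, at -0.25, changed most.

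Single libraries weighed on the counts of calls. The median difference from the control mean, in log2(CPM + 0.5), over the 14 members that rose was 0.18 in β-alanine library 1, 0.27 in library 2 and 0.25 in library 3. Over the 5 that fell it was -0.22, -0.27 and -0.35. The signs follow from how these members were chosen, and the values show only that library 1 was nearest to the controls in both sets. Without β-alanine library 1, 17 members rose and 5 fell. In that fit 36.2% of all genes were called, against 27.9% with all 6 libraries. Without each of the other libraries in turn, 11 to 14 members rose and 4 or 5 fell. Those fits called 17.0% to 21.3% of all genes. Of the 19 called members, 15 were called in all 6 of these fits, and the exceptions were NFE2L2, GSR, GPX8 and TXNRD2.

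**Figure D5:**
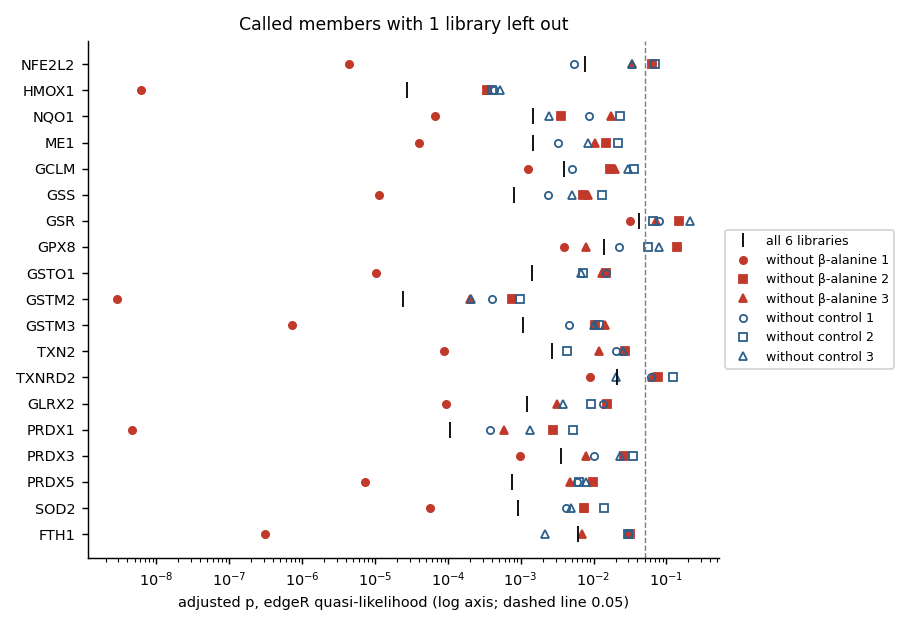
Adjusted p of the 19 called members in edgeR's quasi-likelihood test (log axis, dashed line at 0.05) with all 6 libraries (bar) and without each β-alanine library (filled) or control library (open) in turn. NFE2L2, GSR, GPX8 and TXNRD2 have points right of the line, and for all 19 the value without β-alanine library 1 lies below that of all 6 libraries.

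Outside the members, 121 other genes of the same pathways were in the table and 112 were tested, of which 32 rose and 22 fell. This was 48.2%, against 27.9% of all genes. Of the 64 with an average log2 CPM of at least 5, 29 were called (45.3%), against 40.4% of all genes at that level, which is nearer to the background. Genes below that level, here and in the lists that follow, were not compared with all genes at their own level. Without β-alanine library 2, 14 rose and 14 fell, 28 of 112, against 17.0% of all genes in the same fit. Of 13 tested genes of NRF2 degradation and its partners, 6 rose and 1 fell (53.8%). The small MAF partners MAFF, MAFG and MAFK all rose, by 1.35 ± 0.13, 0.34 ± 0.05 and 0.37 ± 0.08 on the log2 scale (adjusted p = 1.6e-06, 1.85e-05 and 0.000891). MAFF had 12.3, 18.3 and 18.0 CPM in β-alanine libraries and 6.92, 6.46 and 6.22 CPM in controls. Of 24 other NRF2 targets, 10 rose and 1 fell (45.8%). At an average log2 CPM of at least 5, 4 of 8 and 8 of 15 genes of these lists were called. The carbonyl reductase CBR1 rose by 0.32 (adjusted p = 0.000157) and the aldose reductase AKR1B1 by 0.28 (adjusted p = 0.000349), while the epoxide hydrolase EPHX1 fell by 0.26 (adjusted p = 0.000935).

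Of 23 genes of the other glutathione steps, 4 rose and 8 fell (52.2%), against 27.9% of all genes. At an average log2 CPM of at least 5, 5 of 9 were called, against 40.4% of all genes. CHAC1, which degrades glutathione, had 9.12, 9.08 and 9.26 CPM with β-alanine and 4.60, 4.50 and 5.20 CPM in controls (log2 fold change 0.94 ± 0.12, adjusted p = 4.04e-06). PTGES2, a prostaglandin E synthase with a glutaredoxin-like domain, and the transferase GSTM1 fell, by 0.60 and 0.37. Of 20 further thioredoxin-fold and methionine sulfoxide repair genes, 5 rose and 6 fell (55.0%). At that level 5 of 12 were called, near the background of genes at that level. The genes of this list below it were not compared in this way. TXNDC9, a thioredoxin-fold protein, rose by 0.34, while the methionine sulfoxide reductases MSRB2 and MSRB3 fell by 0.51 and 0.23.

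Thioredoxin reductases and several glutathione peroxidases contain selenocysteine, which a special elongation factor inserts. Of the 5 selenoprotein members, 4 were tested and TXNRD2 alone was called. Of 18 genes of selenoprotein synthesis and other selenoproteins, 4 rose and 3 fell (38.9%), against 27.9% of all genes. At an average log2 CPM of at least 5, 3 of 10 were called, against 40.4% of all genes. EEFSEC, the selenocysteine elongation factor, had 9.12, 7.84 and 8.75 CPM in β-alanine libraries, against 12.8, 14.8 and 14.6 CPM in controls (log2 fold change -0.73 ± 0.10, adjusted p = 1.38e-05). SEPSECS, which makes the selenocysteinyl tRNA, fell by 0.39 (adjusted p = 0.00032), and SELENOS, a selenoprotein of the endoplasmic reticulum, rose by 0.33 (adjusted p = 4.37e-05).

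Of 14 genes of ferroptosis and iron handling, 3 rose and 3 fell (42.9%), against 27.9% of all genes. At an average log2 CPM of at least 5, 4 of 10 were called, against 40.4% of all genes, so this count is near the background. PCBP2, an RNA-binding protein that also carries iron to ferritin, had 194, 169 and 164 CPM with β-alanine and 272, 248 and 246 CPM in controls (log2 fold change -0.55 ± 0.06, adjusted p = 1.3e-05). GCH1, the first enzyme of tetrahydrobiopterin synthesis, rose by 0.73 ± 0.13 (adjusted p = 0.000176). AIFM2, which reduces coenzyme Q at membranes, fell by 0.44 ± 0.08 (adjusted p = 0.000233).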

How the data were processed

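Per the labels, polyadenylated RNA of DMS114 cells was sequenced after 48 h in 2.5 mM β-alanine or vehicle. The deposited values are the authors' raw counts, 1 row per gene symbol. The submitters' processing notes name bcl2fastq, Trimmomatic 0.39, STAR 2.7.3a, featureCounts 2.0.1, DESeq2 and GRCh38. No source used here names the annotation or says whether strand was used. Reads from overlapping genes on opposite strands or from near-identical copies may therefore have been given to either gene or left uncounted.

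Counts were filtered with filterByExpr, leaving 17331 genes, scaled by TMM, and tested over all 6 libraries with edgeR 4.0.16's quasi-likelihood test (R 4.3.3, two-sided, Benjamini-Hochberg adjustment, threshold 0.05). CPM uses TMM-scaled totals, and 1 count was worth 0.0300 to 0.0696 CPM. Summed levels and ratios were compared by exact permutation. Exon lengths and overlaps came from GENCODE release 29. Alternatives used DESeq2 1.42.0, limma-voom 3.58.1, other scalings, filters and thresholds, a replicate block, and leaving out each library. Figures used matplotlib 3.10.9.

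The members and the lists were chosen with earlier results of these data known. The within-library ratios, the cytosolic sum without PRDX1, the level of log2 CPM of at least 5 and the check of same-numbered libraries were added after seeing the data. All members are accounted for, called ones with full values. Up to 3 called genes of each other list were named by smallest p.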

Additional observations from a re-analysis of the deposited data

How the results depend on the processing

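Of the 19 called members, 17 were called under all 9 alternatives on 6 libraries, 16 at an adjusted p under 0.01, and none of the 19 changed sign in any alternative or when a library was left out. At that stricter threshold all-gene calls were 1454 higher and 1391 lower, against 2441 and 2389, and other pathway genes 16 and 13, against 32 and 22. DESeq2 called 14 other pathway genes as lower. Scaling to library totals gave a mitochondrial sum of 1.13-fold, against 1.12-fold, and moved the median of all genes by 0.0176 (log2). Leaving out each library gave 1501 to 3204 higher and 1473 to 3294 lower genes, both lowest without β-alanine library 2, with 1570 and 1488 without control library 2. It gave 11 to 17 and 4 or 5 members, and 14 to 35 and 13 to 30 other pathway genes. Members that turned direction were not called there: GCLC at 0.0157 with library totals, 0.0059 with no low-count filter and -0.0279 to 0.0118 without single libraries. Without single libraries GPX1 ran from -0.0262 to 0.0639, TXN from -0.0093 to 0.0936, TXNRD1 from -0.0006 to 0.0258, GLRX from -0.0452 to 0.35, SRXN1 from -1.01 to 0.29 and FTL from -0.0159 to 0.13. The causes were not tested.

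Libraries of the 2 groups share replicate numbers, but nothing in the labels pairs them, and same-numbered libraries correlated at 0.0024 to 0.1046 in their deviations from group means. Pairs of unlike number ran from -0.0969 to 0.0120. β-alanine libraries 1 and 3 correlated best with the control library of their own number (0.0655 and 0.1046). β-alanine library 2 correlated best with control library 1 (0.0120), not with its own number. Seen from the controls, each library correlated best with the β-alanine library of its own number. For control library 2 this was 0.0024, against 0.0011 and -0.0037. With the replicate block 16 members rose and 5 fell. Genes under about 3 CPM, such as ME1, GLRX and OSGIN1, rest on few counts, so their intervals are wide.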

Other observations

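Besides SRXN1, genes that were over 1.5-fold higher in library 1 of both groups than in all other libraries included C4orf48, a short secreted peptide gene, and TXNDC5, a thioredoxin-fold enzyme of the endoplasmic reticulum. C4orf48 had 12.5, 6.75 and 3.33 CPM in β-alanine libraries and 13.8, 6.50 and 4.13 CPM in controls. TXNDC5 had 5.92, 3.50 and 2.34 CPM in β-alanine libraries and 15.2, 2.09 and 3.62 CPM in controls. Neither was called between the groups (adjusted p = 0.846 and 0.554, edgeR). These 2 were named after their values were seen.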
